A study of Mus musculus with 4 samples.

Results

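The genes described here are those of the T cell receptor's constant chains and of CD3, chosen by name as 10 of the 32285 genes in the RNA matrices: Cd3e, Cd3d, Cd3g, Trac, Trbc1, Trbc2, Trdc, Tcrg-C1, Tcrg-C2 and Tcrg-C4. Their chromatin was read in the accessible regions that overlapped the 10 kb on either side of their start sites. Days were compared over the 29 such regions, of 127216 found in both libraries, while window values within a day used all peaks of its library. The nuclei came from livers of C57BL/6J mice 6 to 12 weeks old, sorted as living CD45+ CD64- CD11c+ cells, which enriches dendritic cells. Chow with 3,5-diethoxycarbonyl-1,4-dihydrocollidine (DDC) at 0.1%, an agent that injures bile ducts, was fed for 0 days (D0) or 5 days (D5), and RNA and accessible chromatin (ATAC-seq) were read from the same nuclei by 10x Multiome. Each day is 1 library, the number of animals behind a library is not given in the sources used here, and no label names a genetic change.

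T cells recognise antigen through a receptor of paired chains, alpha with beta or gamma with delta, and each chain joins a variable domain to a constant domain. The variable parts are assembled in the thymus by recombination of V, D and J segments, while the constant genes lie downstream and are transcribed after joining, or before it as germline transcripts without a V segment. The receptor chains cannot signal by themselves: the CD3 gamma, delta and epsilon proteins and the zeta chain (Cd247) carry the signal into the cell. Natural killer (NK) cells have no such receptor, yet their chromatin at these loci is known to be partly open and some constant genes are transcribed there.

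The genes of the CD3 chains lie on chromosome 9 (mm10), with start sites at 45009613 for Cd3e (ENSMUSG00000032093), 44981786 for Cd3d (ENSMUSG00000032094) and 44980431 for Cd3g (ENSMUSG00000002033). Cd3d and Cd3g start 1355 bases apart, in opposite directions, and Cd3e starts 27827 bases from Cd3d. Of the 10 members, 3 had a promoter sequence in the RefSeq table (GRCm38.p6), all of them CD3 genes. The 250 bases upstream of each start are shown because Cd3e and Cd3g, though neighbours, differed between T and NK nuclei. Capitals mark an E box of the form CACCTG or CAGGTG and an Ets type motif of the form CTTCCT or AGGAAG, searched on both strands, and none of these matches overlapped another kind.
Cd3e, chr9:45009612-45009861, minus strand: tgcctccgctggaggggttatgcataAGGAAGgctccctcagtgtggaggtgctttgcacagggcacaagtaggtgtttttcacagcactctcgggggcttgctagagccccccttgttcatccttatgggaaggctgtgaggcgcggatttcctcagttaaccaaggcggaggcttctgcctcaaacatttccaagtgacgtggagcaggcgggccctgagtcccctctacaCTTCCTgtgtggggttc
Cd3d, chr9:44981536-44981785, plus strand: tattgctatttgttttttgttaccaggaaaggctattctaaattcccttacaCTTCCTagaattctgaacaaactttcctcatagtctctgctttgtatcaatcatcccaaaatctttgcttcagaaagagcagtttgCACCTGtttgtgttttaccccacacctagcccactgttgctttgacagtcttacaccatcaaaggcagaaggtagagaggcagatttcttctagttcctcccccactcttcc
Cd3g, chr9:44980432-44980681, minus strand: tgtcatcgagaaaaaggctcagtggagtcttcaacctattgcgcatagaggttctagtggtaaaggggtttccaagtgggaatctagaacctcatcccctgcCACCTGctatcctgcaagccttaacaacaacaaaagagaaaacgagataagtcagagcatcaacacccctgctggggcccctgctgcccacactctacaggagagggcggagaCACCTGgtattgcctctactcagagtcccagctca
The Cd3e promoter held 0 E boxes and 2 Ets type motifs, the Cd3d promoter held 1 of each, and the Cd3g promoter held 2 E boxes and 0 Ets type motifs. Among all 32851 promoters of this length, 17.2% held an E box, 29.5% an Ets type motif and 5.25% both. These letters are descriptions of the sequence and say nothing about binding.

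The alpha and delta constant genes lie on chromosome 14, where Trdc (ENSMUSG00000104876) starts at 54142851 and Trac (ENSMUSG00000076928) at 54220521, 77670 bases further on. The beta constant genes lie on chromosome 6, where Trbc1 (ENSMUSG00000076490) starts at 41538218 and Trbc2 (ENSMUSG00000076498) at 41546730. The gamma constant genes lie on chromosome 13, where Tcrg-C1 (ENSMUSG00000076749) starts at 19214103, Tcrg-C2 (ENSMUSG00000076752) at 19307551 and Tcrg-C4 (ENSMUSG00000076757) at 19344558. Trbc1 and Trbc2 are near copies of each other, as are Tcrg-C1 and Tcrg-C2, so reads may be divided unequally within these pairs and the split of UMIs between copies is uncertain. Antisense transcripts could not be told apart, because the strand setting of the counting is not given in the sources used here.

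After removal of nuclei with a high doublet score, 10982 nuclei remained at D0 and 19832 at D5, from RNA libraries of 44496348 and 94374499 unique molecular identifiers (UMIs). Classes were named from marker genes among which there was no member and no V or J segment, and these genes were also kept out of the clustering. Nuclei named T cell-like numbered 281 at D0 (2.56% of the kept nuclei) and 353 at D5 (1.78%), with medians of 1195 and 1696 UMIs. NK cell-like nuclei numbered 754 and 514, with medians of 1266.5 and 1848 UMIs. A further 744 and 657 lymphoid nuclei, led by Emb, Rora, Il7r and Icos, stayed unnamed, as did 804 and 126 nuclei with mixed lymphoid markers. The cDC1-like and cDC2-like nuclei (conventional dendritic cells), in which these genes should be silent, numbered 1754 and 1695 at D0 and 3149 and 5194 at D5. They serve as the level of free RNA and residual doublets, and barcodes not called as nuclei serve as an alternative. The libraries shared 591 barcodes, 3.63% of those at D0 and 2.12% of those at D5.

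The label T cell-like was met in part by the markers. Within the lymphoid nuclei, 7 of the 14 T cell markers were raised in this group (Cd5, Cd6, Bcl11b, Themis, Trat1, Cd40lg and Lat) and 3 were lowered. Its leading genes held Cd8a, Themis, Cd8b1 and Cd5 but also the NK receptor genes Klra1, Klra6 and Klra7. The NK markers Klra7, Klra9 and Eomes were raised as well, and the NK markers Ncr1 (220 and 163 CPM, the counts-per-million scale) and Klrb1c (549 and 512 CPM) were present. The NK cell-like nuclei formed 4 groups, in which 9 to 13 of the 13 NK markers but also 7 to 10 of the 14 T cell markers were raised over the non-lymphoid nuclei. By the same count 9 NK markers were raised in the T cell-like group and 9 in the unnamed lymphoid group. T cell markers raised there were 13 and 10. This count of NK markers thus set only the group with 13 clearly apart. Against the other lymphoid nuclei, 8 NK markers were raised in the group led by Klra4, Klra8 and Eomes, of 52 nuclei, and at most 1 in the others, so the name is broad. Dendritic RNA was present too: at least 2 dendritic markers were found in 36.3% of T cell-like nuclei at D0 and 42.5% at D5, and in 47.6% and 50.4% of NK cell-like nuclei. The summed level of the 8 cDC1 markers was 300 and 216 CPM in T cell-like nuclei, and 383 and 213 CPM in NK cell-like nuclei. Values without the nuclei that held at least 2 dendritic markers are given beside some of the results they change, and the changed counts of calls are given in the closing section. Levels in CPM are UMIs summed over the nuclei of a class and scaled by the total UMIs of that class, with exact 95% Poisson intervals. With 1 library per day these intervals cover counting error only, no test between days was possible, and none was run between classes, which occur in both libraries. In sums over a class, fewer nuclei with a transcript and less RNA per nucleus cannot be told apart.

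By level, CD3 RNA marked T cell-like nuclei, but the 3 CD3 genes did so to different degrees. By share of UMIs it did not sit there alone. At D0 the 804 mixed lymphoid nuclei held 31.7% of Cd3e, 24.4% of Cd3d and 20.99% of Cd3g UMIs. T cell-like nuclei held 31.5%, 23.2% and 12.96%. For Trdc these shares were 31.3% and 22.2%, and for Trac 23.5% and 39.3%. The mixed lymphoid nuclei were deeper (median 3050.5 UMIs), with 48.3 CPM of Cd3e. At D5 the 126 mixed lymphoid nuclei held 2.75% of Cd3e UMIs. Cd3e, the epsilon chain found in every CD3 pair, stood at 383 CPM (323 to 451) at D0 and 409 CPM (362 to 460) at D5 in T cell-like nuclei, against 42.8 CPM (31.7 to 56.6) and 38.7 CPM (28.0 to 52.2) in NK cell-like nuclei. Its ratio of T over NK was 8.95-fold (6.43 to 12.6) at D0 and 10.6-fold (7.64 to 14.9) at D5. Cd3d, the delta chain, stood at 447 and 642 CPM in T cell-like nuclei and at 75.1 and 91.0 CPM in NK cell-like nuclei, so that its ratio was 5.95-fold (4.56 to 7.81) and 7.05-fold (5.67 to 8.85).

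Cd3g, the gamma chain, broke with its neighbours in the NK cell-like class as a whole. It stood at 662 CPM (582 to 749) and 692 CPM (631 to 757) in T cell-like nuclei, yet also at 367 CPM (333 to 404) and 508 CPM (467 to 552) in NK cell-like nuclei. The T over NK ratio was 1.80-fold (1.53 to 2.11) at D0 and 1.36-fold (1.20 to 1.54) at D5, and neither reached the 2-fold limit set for a call. Cd3g made up 17.0% and 25.5% of all member UMIs in NK cell-like nuclei, where Cd3e made up 1.98% and 1.94%. Its level was far lower in the small NK cell-like group with the most NK markers raised, given below. In cDC1-like nuclei, Cd3g stood at 21.1 and 14.6 CPM and Cd3e at 3.28 and 3.40 CPM.

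**Figure D1:**
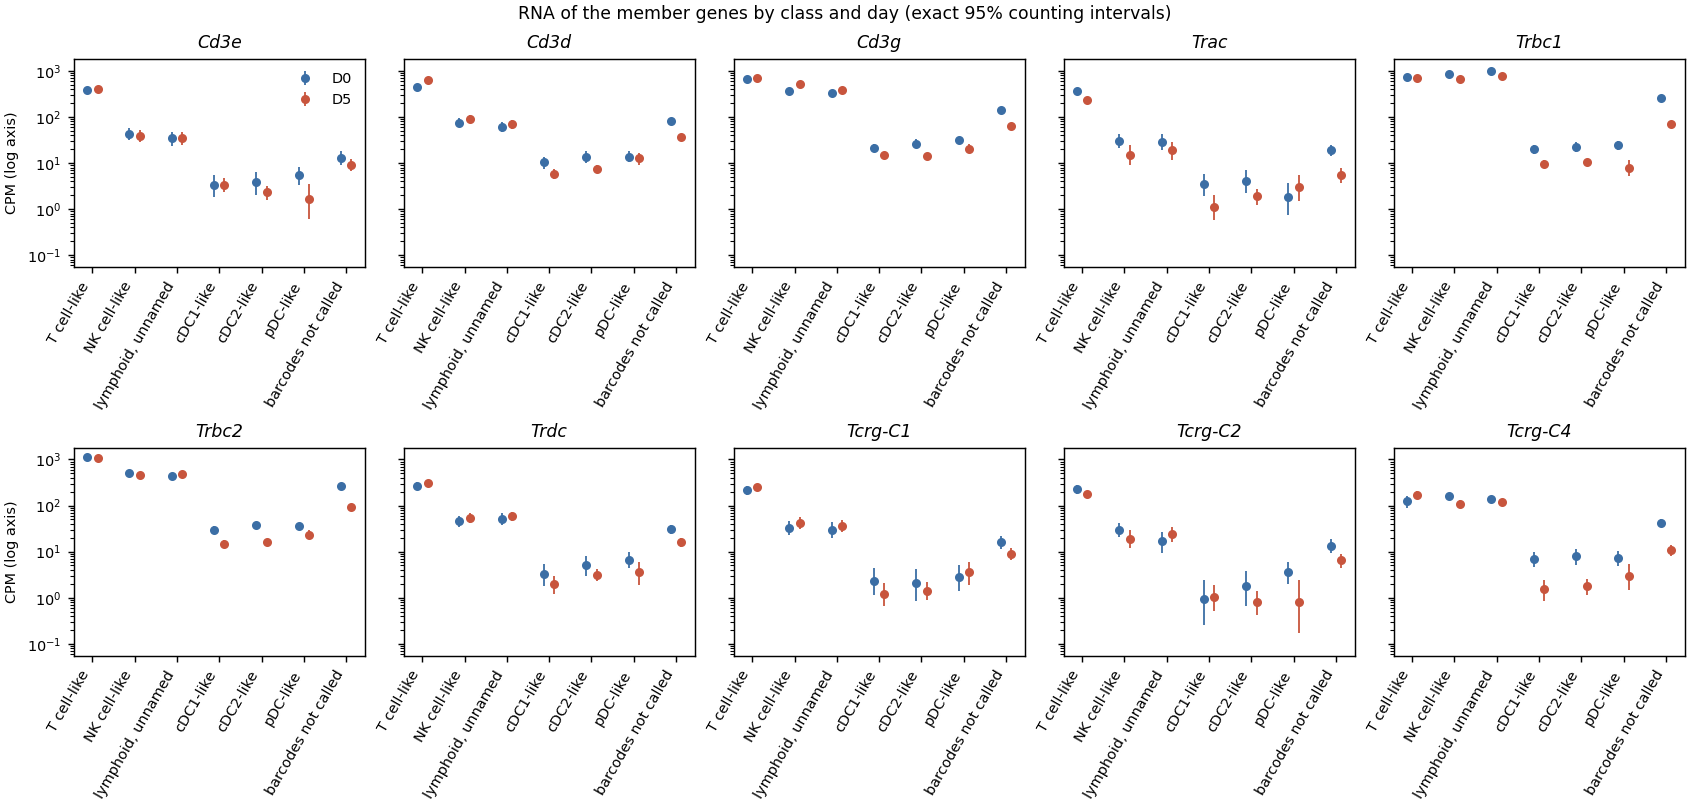
RNA level of each member gene (CPM, log axis) by class of nuclei, with D0 and D5 as separate points and exact 95% counting intervals. Cd3e falls from 383 CPM in T cell-like nuclei to 42.8 CPM in NK cell-like nuclei at D0, while Trbc1 stands at 723 and 864 CPM in these classes.

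The alpha constant gene separated T from NK nuclei most among the receptor chains. Trac, the only constant gene of the alpha chain, stood at 367 CPM (308 to 434) at D0 and 228 CPM (194 to 267) at D5 in T cell-like nuclei. In NK cell-like nuclei it stood at 30.6 CPM (21.3 to 42.5) and 15.3 CPM (8.92 to 24.5). The ratio was 12.0-fold (8.23 to 17.9) at D0 and 14.9-fold (9.01 to 26.2) at D5.

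The beta constant genes were abundant in NK cell-like nuclei. Trbc1 stood at 723 CPM (640 to 815) and 699 CPM (638 to 765) in T cell-like nuclei, and at 864 CPM (811 to 920) and 664 CPM (617 to 714) in NK cell-like nuclei. The log2 ratio of T over NK was -0.26 (-0.46 to -0.06) at D0 and 0.07 (-0.09 to 0.24) at D5, inside the 2-fold limit on both days. Trbc2 stood at 1125 and 1076 CPM in T cell-like nuclei and at 510 and 452 CPM in NK cell-like nuclei, 2.20-fold (1.94 to 2.50) and 2.38-fold (2.12 to 2.67) higher in the former. Trbc1 thus supplied 39.1% and 39.4% of the beta constant UMIs in T cell-like nuclei, 62.9% and 59.5% in NK cell-like nuclei, and 40.0% and 38.8% in cDC1-like nuclei.

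Delta and gamma constant RNA was higher in T cell-like nuclei for Trdc, Tcrg-C1 and Tcrg-C2 but not for Tcrg-C4. Trdc, the delta constant gene, stood at 268 CPM (218 to 326) and 316 CPM (275 to 362) in T cell-like nuclei and at 46.3 CPM (34.7 to 60.6) and 54.0 CPM (41.2 to 69.6) in NK cell-like nuclei. Tcrg-C1 stood at 217 and 252 CPM against 33.2 and 42.3 CPM, and Tcrg-C2 at 225 and 177 CPM against 29.7 and 18.9 CPM. The ratios of these 3 genes ran from 5.78-fold to 9.34-fold over both days. With at least 2000 UMIs per nucleus, which left 13 T cell-like nuclei at D0, the Tcrg-C1 ratio at D0 changed sign. Tcrg-C4 stood at 123 CPM (90.2 to 164) and 169 CPM (140 to 203) in T cell-like nuclei and at 158 CPM (136 to 183) and 110 CPM (91.3 to 131) in NK cell-like nuclei, with ratios on the log2 scale of -0.36 (-0.86 to 0.11) at D0 and 0.62 at D5, with an interval above 0 but short of the 2-fold limit.

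Of the 10 members, 7 were at least 2-fold higher in T cell-like than in NK cell-like nuclei at D0 with an interval beyond 0, against 1.23% of 8227 genes, and 7 at D5, against 1.62% of 8257 genes. None was lower by this rule, against 2.86% and 2.72% of genes. The same genes made up the 7 on both days: Cd3e, Cd3d, Trac, Trbc2, Trdc, Tcrg-C1 and Tcrg-C2. The median log2 ratio of the members was 2.55 at D0 and 2.56 at D5, beside -0.05 and -0.01 over all genes. With no nuclei removed by doublet score the naming itself changed: a group led by Ccl1 and Csf2 was then named T cell-like and held 855 of 1111 and 1686 of 2044 of that class, and the count at D5 was 4. Of its nuclei, 485 and 602 were unnamed lymphoid nuclei in the naming used here, 162 and 611 had been removed by doublet score, 63 and 333 were NK cell-like and 13 and 48 were T cell-like. In the naming used here, a smaller NK cell-like group of 19 and 186 nuclei had the same 2 leading genes. With that group counted as NK cell-like, an alternative chosen after the values were seen, 256 and 358 T cell-like nuclei were left and the count was 9 on both days, all but Trbc1. Cd3g then passed the limit (1.95 and 1.38 on the log2 scale), and so did Tcrg-C4 (1.45 and 1.48), against 4401 and 2932 NK cell-like nuclei that included groups led by Lyz1 and by Dab2. With at least 2000 UMIs per nucleus, which left 13 T cell-like nuclei at D0, the count at D0 was 2.

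**Figure D2:**
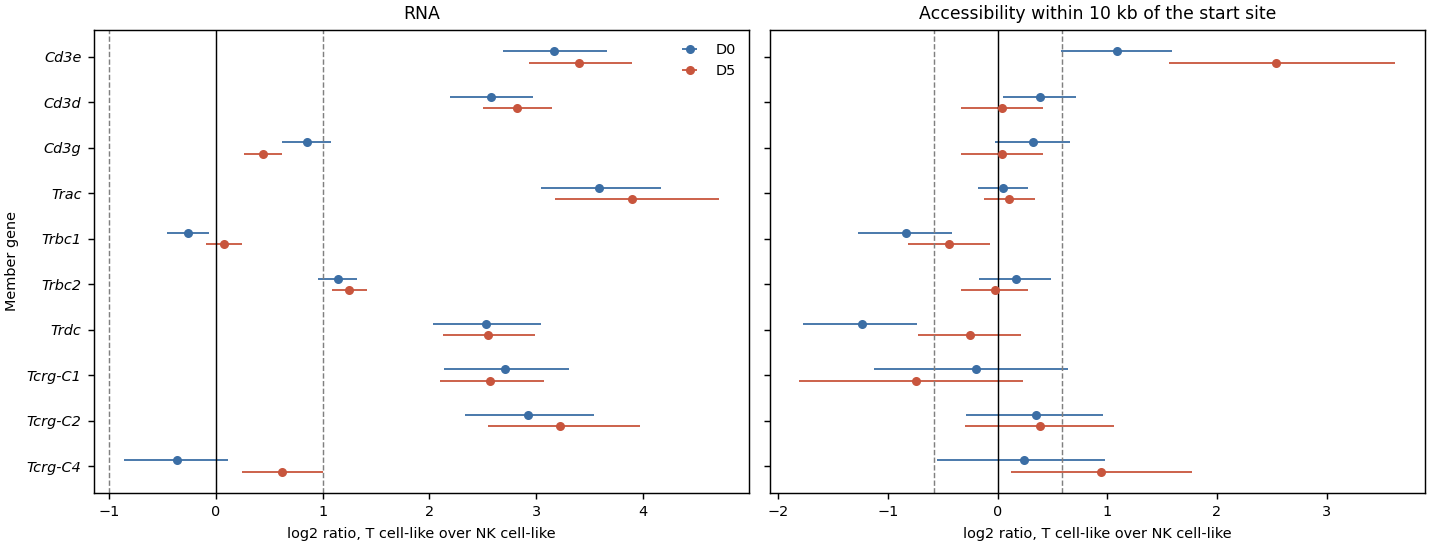
Log2 ratio of T cell-like over NK cell-like nuclei for the RNA of each member and for the accessibility of its 10 kb window, at D0 and D5, with 95% counting intervals. RNA ratios span -0.36 for Tcrg-C4 to 3.58 for Trac at D0, while the window of Trac stays at 0.05.

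Every member stood above the conventional dendritic cell level in NK cell-like nuclei: 10 of 10 at D0, against 16.4% of 11902 genes, and 10 of 10 at D5, against 15.1% of 13001 genes. With barcodes not called as nuclei as the reference the count was 7 at D0 and 10 at D5. In these barcodes Cd3d stood at 82.1 CPM and Trac at 19.0 CPM at D0, beside 75.1 and 30.6 CPM in NK cell-like nuclei. Trdc stood at 30.6 CPM (24.2 to 38.1) in the barcodes and at 46.3 CPM (34.7 to 60.6) in NK cell-like nuclei at D0. Cd3d, Trac and Trdc were the members not above this reference at D0. The beta genes of NK cell-like nuclei stood above both references, with Trbc1 at 262 and 71.7 CPM in uncalled barcodes and at 20.1 and 9.53 CPM in cDC1-like nuclei.

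How these UMIs were spread over nuclei differed between the beta genes and Cd3e. Trbc1 was found in 63.8% of NK cell-like nuclei at D0 and 64.2% at D5, and in 42.3% and 47.6% of T cell-like nuclei. Cd3e was found in 4.77% and 6.23% of NK cell-like nuclei and in 38.1% and 48.7% of T cell-like nuclei. In cDC1-like nuclei, of a higher median depth (2147.5 and 3091 UMIs), Trbc1 was found in 4.33% and 2.92% and Cd3e in 0.798% and 1.11%. Thinned to 1000 UMIs in every nucleus, with 0 nuclei left out, Trbc1 was found in 50.5% and 42.6% of NK cell-like nuclei and Cd3e in 2.25% and 4.09%, beside 1.65% and 0.953% for Trbc1 in cDC1-like nuclei. At least 3 members were found in 71.5% and 87.8% of T cell-like nuclei, in 25.5% and 37.9% of NK cell-like nuclei, and in 0.228% and 0.0953% of cDC1-like nuclei.

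Cd3e of the NK cell-like class fell mostly in few nuclei, and the other rarer members less so. A split of the class, chosen after these values were seen, set apart the 118 NK cell-like nuclei of both days with a UMI of Trac or Trdc from the 1150 with neither. The 118 nuclei held 56 of the 92 Cd3e UMIs of the class, a level of 207 CPM (156 to 269), against 18.1 CPM (12.7 to 25.1) in the other 1150. Cd3d stood at 281 CPM (221 to 352) and 55.9 CPM (46.0 to 67.4), and Tcrg-C1 at 155 CPM (112 to 210) and 21.7 CPM (15.7 to 29.2). Most UMIs of Cd3d lay in the 1150 nuclei all the same, 111 beside 76, and so did those of Tcrg-C2, 34 beside 21, while Tcrg-C1 was divided evenly, 43 beside 42.

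The beta genes did not follow this split beyond their intervals, and Cd3g followed it less than Cd3e. In the 1150 NK cell-like nuclei with neither Trac nor Trdc, Trbc1 stood at 760 CPM (723 to 800), Trbc2 at 473 CPM (443 to 504), Cd3g at 417 CPM (389 to 446) and Tcrg-C4 at 129 CPM (114 to 146). In the 118 nuclei these levels were 803 CPM (699 to 917), 547 CPM (463 to 643), 581 CPM (493 to 679) and 174 CPM (128 to 231). Trbc1, Trbc2 and Tcrg-C4 had intervals that overlapped between these sets of nuclei, and Cd3g did not. Nuclei with Trdc and without Trac made up 75 of the 118, and Cd3e was found in 34.7% (24.0 to 46.5) of these 75, beside 2.70% (1.84 to 3.80) of the 1150. Cd3g was found in 45 of these 75 and in 450 of the 1150, 39.1% (36.3 to 42.0). Median depth was 1699 UMIs in the former and 1431 in the latter.

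Among the 4 groups of NK cell-like nuclei, counted over both days, Trbc1 was present throughout while CD3 varied. The group of 897 nuclei had 781 CPM of Trbc1 (735 to 830), 444 CPM of Cd3g (409 to 482) and 36.8 CPM of Cd3e (27.2 to 48.6). The group of 205 nuclei led by Ccl1 and Csf2 had 638 CPM of Trbc1 (567 to 715), 467 CPM of Cd3g (407 to 533) and 4.28 CPM of Cd3e (0.518 to 15.5), the last from 2 UMIs. The group of 52 nuclei led by Klra4, Klra8 and Eomes had 517 CPM of Trbc1 (388 to 674) and the lowest Cd3g, 76.6 CPM (33.1 to 151), beside 141 and 63.8 CPM in uncalled barcodes at D0 and D5. This was the group with 8 NK markers raised against the other lymphoid nuclei, so the high Cd3g of the class came from its other groups. Cd3e was highest in the group of 114 nuclei led by Tnip3, at 111 CPM (79.0 to 152), where the median depth was 2650.5 UMIs. Tnip3 is itself one of the cDC2 markers used here, and the part of doublets in this value was not tested.

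The unnamed lymphoid nuclei resembled the NK cell-like nuclei at these genes. Trbc1 stood there at 990 CPM (929 to 1055) and 778 CPM (729 to 829), Trbc2 at 446 and 477 CPM, and Cd3g at 324 and 379 CPM. Cd3e stood at 34.2 and 34.3 CPM and Trac at 29.0 and 18.8 CPM. Among the nuclei of this class with Trdc and without Trac, 62 over both days, Cd3e was found in 35.5%, and among the 1294 with neither it was found in 2.01%.

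Outside the lymphoid classes the members were mostly low. In pDC-like nuclei (plasmacytoid dendritic cells) Trbc2 stood at 35.8 and 23.2 CPM and Cd3e at 5.44 and 1.64 CPM, and in macrophage-like nuclei Trbc2 stood at 37.9 and 18.5 CPM and Cd3e at 2.45 and 2.71 CPM. In Ccr7+ DC-like nuclei Cd3g stood at 45.9 and 25.6 CPM. The levels in cDC2-like nuclei, such as 22.4 and 10.3 CPM of Trbc1, lay close to those in cDC1-like nuclei. Neutrophil-like nuclei numbered 5 at D0, too few for a level, and nonclassical monocyte-like nuclei held at most 10 UMIs of any member. These 10 UMIs were Cd3g at D0, a level of 77.2 CPM (37.0 to 142).

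Within T cell-like nuclei, alpha and delta RNA were found apart more often than together. Over both days 192 nuclei had Trac, 177 had Trdc and 22 had both, where the product of the shares would give 53.6. Trdc with Tcrg-C1 was found in 79 nuclei, where the product gives 49.4, and Trdc with Tcrg-C4 in 56, where it gives 35.7. Trac with Tcrg-C1 was found in 39 nuclei, where the product gives 53.6. Deeper nuclei raise all such pairs, so the pairs below the product are descriptions set against that tendency.

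Nuclei with Trdc and without Trac carried gamma constant RNA, and those with Trac and without Trdc carried Cd8b1, the CD8 beta chain. Tcrg-C1 was found in 46.5% (38.4 to 54.6) of the 155 Trdc nuclei and in 18.8% (13.2 to 25.5) of the 170 Trac nuclei, and Tcrg-C4 in 30.3% (23.2 to 38.2) and 10.6% (6.40 to 16.2). Tcrg-C2 did not separate them, at 25.2% and 24.1%. Cd8b1 was found in 1.94% of the Trdc nuclei and in 12.4% of the Trac nuclei, and Themis, a T cell selection gene, in 1.29% and 11.2%. Cd8a was found at 34.8% and 39.4%, Cd3e at 52.9% and 45.9%, and Trbc2 at 59.4% and 71.2%.

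As counted, more T cell-like nuclei held Trdc without Trac at D5, where the nuclei were deeper (medians of 1195 and 1696 UMIs) and each day is 1 library. Nuclei with Trdc and without Trac were 47 of 281 at D0, 16.7% (exact binomial interval 12.6 to 21.6), and 108 of 353 at D5, 30.6% (25.8 to 35.7). Thinned to 1000 UMIs the shares were 15.7% (11.6 to 20.4) and 23.2% (18.9 to 28.0), whose intervals overlap. With no nuclei removed by doublet score and the group led by Ccl1 counted as NK cell-like they were 18.0% and 25.7%, and with the members among the clustering genes 22.8% and 35.8%. With that group named T cell-like they were 7.29% and 10.4%, over a class that it mostly filled. Nuclei with Trac and without Trdc were 30.6% (25.3 to 36.4) and 23.8% (19.4 to 28.6), or 24.6% and 15.3% when thinned. In cDC1-like nuclei Trdc was found in 0.798% at D0 and 0.667% at D5. No Trac or Trdc UMI was found in 138 and 149 T cell-like nuclei, so the chain of these nuclei is unknown.

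Pooled over alpha and beta, V segments per constant gene UMI were more frequent in T cell-like than in NK cell-like nuclei. Alpha V segments alone did not show this. Over all chains the V segment UMIs numbered 7.03 per 100 constant gene UMIs (5.57 to 8.75) at D0 and 4.49 (3.61 to 5.53) at D5 in T cell-like nuclei, and 6.22 (5.15 to 7.44) and 5.38 (4.27 to 6.68) in NK cell-like nuclei. This comparison depended on the processing: with Trgv2 counted the numbers were 10.5 and 7.47 in T cell-like and 7.05 and 6.18 in NK cell-like nuclei, and with at least 2000 UMIs the number at D0 was 1.98 in T cell-like nuclei. Divided by chain, a step chosen after these values were seen, alpha and beta V segments numbered 5.56 per 100 Trac, Trbc1 and Trbc2 UMIs (4.07 to 7.42) at D0 and 3.53 (2.60 to 4.68) at D5 in T cell-like nuclei. In NK cell-like nuclei they numbered 0.995 (0.569 to 1.62) and 0.557 (0.224 to 1.15), that is 16 V segment UMIs beside 1608 constant UMIs at D0 and 7 beside 1256 at D5. The unnamed lymphoid nuclei stood at 0.708 (0.339 to 1.30) and 0.385 (0.141 to 0.837). Alpha V segments alone had 28 and 25 UMIs beside 137 and 155 of Trac in T cell-like nuclei. In NK cell-like nuclei they had 8 and 6 beside 35 and 17. Beta V segments had 18 and 23 UMIs in T cell-like and 8 and 1 in NK cell-like nuclei. Of the 1608 constant UMIs of NK cell-like nuclei at D0, Trbc1 and Trbc2 gave 989 and 584.

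Pooled gamma and delta V segments ran the other way, through the delta segments. Per 100 gamma and delta constant UMIs there were 23.8 (18.7 to 29.9) and 16.1 (13.1 to 19.6) in T cell-like nuclei, and 38.9 (32.2 to 46.5) and 34.4 (27.5 to 42.5) in NK cell-like nuclei. These counts include Trgv2, a gamma V segment that the ratio over all chains leaves out. Without it the numbers were 10.9 (7.57 to 15.3) and 6.60 (4.74 to 8.96) in T cell-like nuclei, a move of more than 2 times, and 33.7 (27.5 to 40.8) and 29.6 (23.2 to 37.2) in NK cell-like nuclei. Most V segment UMIs of NK cell-like nuclei were delta segments, 79 at D0 and 61 at D5, of which Trdv4 gave 63 and 46 and Trdv2-2 gave 15 and 14. Trdc itself had 53 and 60 UMIs there. In T cell-like nuclei delta V segments had 17 and 15 UMIs beside 100 and 215 of Trdc. With Trgv2 counted, gamma V segments alone did not run this way. They had 57 and 85 UMIs in T cell-like and 40 and 25 in NK cell-like nuclei. T cell-like nuclei held 8 and 11 UMIs of Trdv4, and instead 40 and 59 of Trgv2, whose start lies within 10 kb of Tcrg-C4. With short reads from transcript ends, a V segment UMI cannot be assigned to a joined or an unjoined transcript, and whether these segments were joined was not tested. The genes of receptor assembly were scarce: Rag1 and Rag2, the recombinase, had 0 UMIs in both classes on both days. Ptcra, the surrogate alpha chain, had 2 and 1 UMIs in T cell-like and 4 and 2 in NK cell-like nuclei, and Dntt, which adds bases at the joints, had 10 and 4 UMIs and 8 and 3 UMIs.

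**Figure D3:**
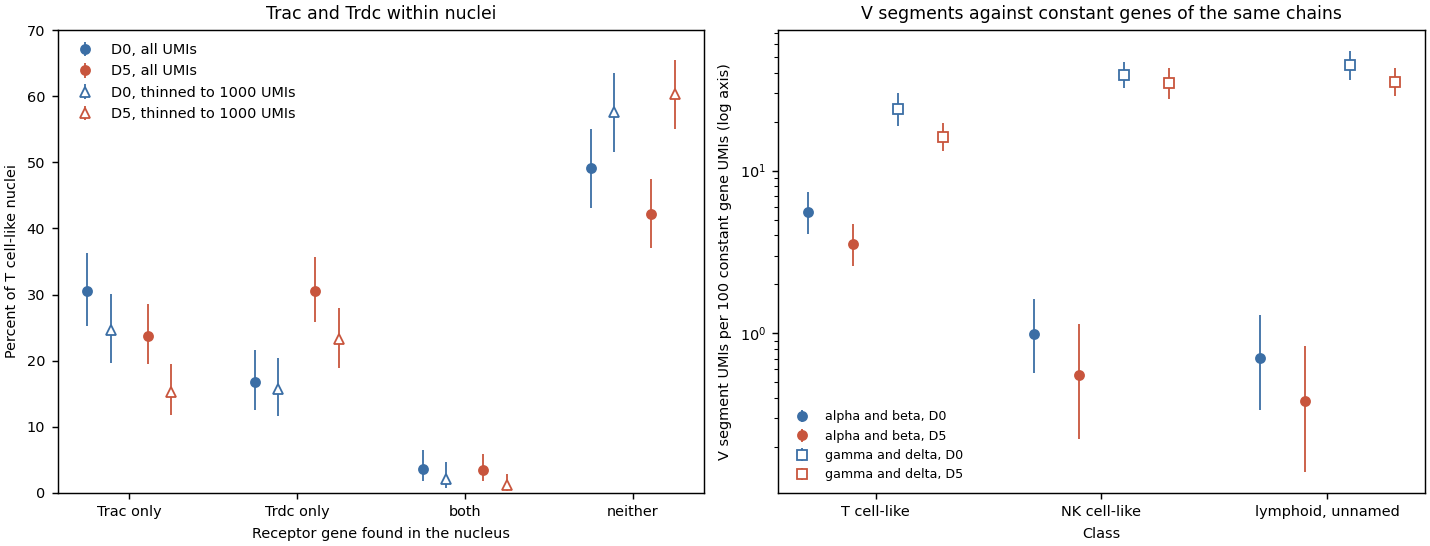
Left, percent of T cell-like nuclei with Trac only, Trdc only, both or neither at D0 and D5, with exact binomial intervals; right, V segment UMIs per 100 constant gene UMIs of the same chains (log axis, Trgv2 counted) in T cell-like, NK cell-like and unnamed lymphoid nuclei. The Trdc share is 16.7% at D0 and 30.6% at D5, and alpha and beta V segments stand at 5.56 in T cell-like and 0.995 in NK cell-like nuclei at D0.

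Between D0 and 5 days of DDC, Trac was the member called in both the T cell-like and the NK cell-like class, and the numbers of members called there lay near the share over all genes. These numbers depended on the processing: 4 members were lower in NK cell-like nuclei with the members among the clustering genes, 3 were higher there with no nuclei removed by doublet score (1 with the group led by Ccl1 counted as NK cell-like), and 3 were higher in T cell-like nuclei with at least 2000 UMIs. In T cell-like nuclei 0 of 10 members were at least 1.5-fold higher at D5 with an interval beyond 0, against 4.32% of 6849 genes, and 1 was lower, against 9.37%. The lower member was Trac, which decreased by 0.69 on the log2 scale (-1.03 to -0.34). Cd3d had a log2 ratio of 0.52 (0.26 to 0.79), just short of the limit, and the other 8 lay between -0.35 and 0.46. The median was 0.08 for the members and -0.14 for all genes, and with TMM scaling, which removes most of that shift, Cd3d (0.66) and Tcrg-C4 (0.59) passed the limit as higher while Trac (-0.55) no longer did. Without the nuclei that held at least 2 dendritic markers, the Trac ratio was -0.31 and short of the limit.

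In NK cell-like nuclei 0 of 10 members were higher at D5, against 4.97% of 9022 genes, and 1 was lower, against 13.8%. This was again Trac, with a log2 ratio of -0.998 (-1.93 to -0.12) from 35 and 17 UMIs. Cd3g had a ratio of 0.47 (0.28 to 0.66), Trbc1 one of -0.38 (-0.52 to -0.24) and Tcrg-C4 one of -0.53 (-0.87 to -0.19), each with an interval that left out 0 but short of the limit. Tcrg-C2 had a ratio of -0.65 (-1.51 to 0.18), past the limit in size with an interval that held 0. The median was -0.16 for the members and -0.19 for all genes, and with TMM scaling Cd3g (0.60) passed the limit as higher, while the interval of Trac (-0.87) just held 0. Without the nuclei that held at least 2 dendritic markers, the Trac ratio was -0.20. The NK cell-like groups were not equally filled: the group led by Ccl1 and Csf2 held 19 nuclei at D0 and 186 at D5, and the largest group 617 and 280. Within the largest group Cd3g stood at 397 and 518 CPM, Trbc1 at 856 and 665 CPM, Trac at 22.1 and 9.64 CPM and Tcrg-C4 at 164 and 152 CPM. In the unnamed lymphoid nuclei 0 of 10 were called in either direction, against 4.65% and 8.64% of genes, and Trac had a ratio of -0.63 (-1.49 to 0.22). In the mixed lymphoid nuclei, 804 at D0 and 126 at D5, Cd3g passed the limit as higher (0.80, 0.50 to 1.09). Cd3e (-0.92, -1.82 to -0.12) and Trdc (-1.11, -2.09 to -0.26) passed it as lower, and Trac (-0.45) was not called. The share over all genes was not computed for this class.

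Free RNA moved between the days as well. Trbc1 stood at 262 CPM at D0 and 71.7 CPM at D5 in uncalled barcodes, Trac at 19.0 and 5.38 CPM, and Cd3g at 141 and 63.8 CPM. In cDC1-like nuclei Trac stood at 3.51 and 1.13 CPM and Tcrg-C4 at 6.79 and 1.51 CPM. The part of free RNA in the differences between days was not tested.

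**Figure D4:**
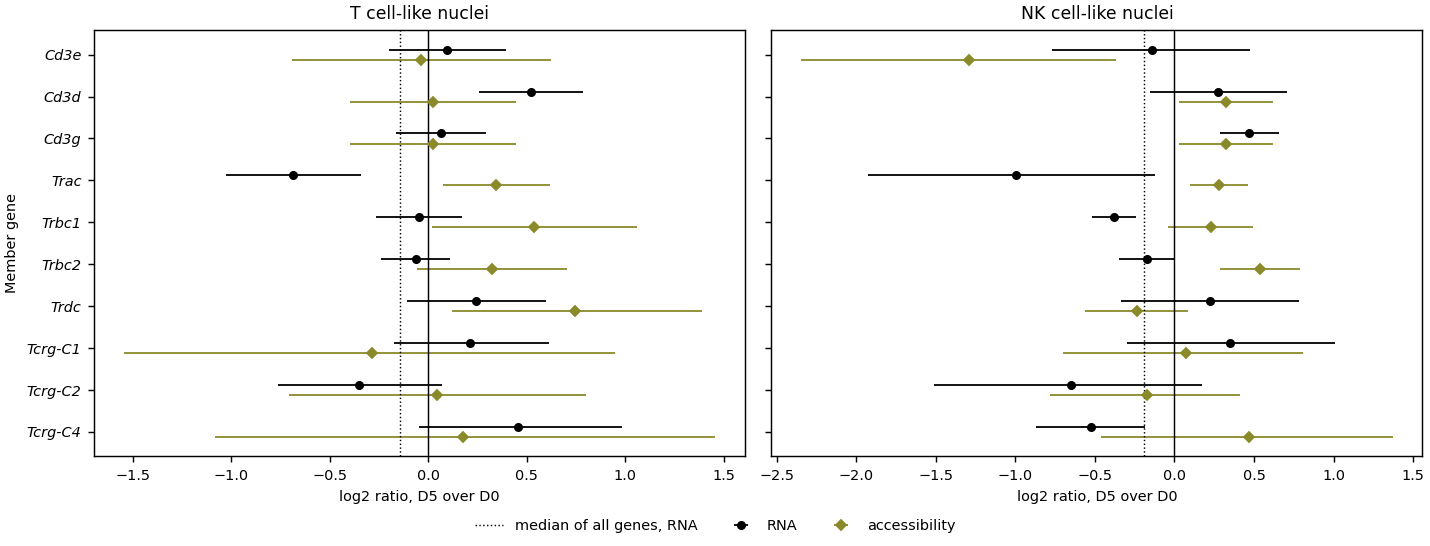
Log2 ratio of D5 over D0 for the RNA of each member and the accessibility of its window, in nuclei of the T cell-like class (left) and the NK cell-like class (right), with 95% counting intervals and the median RNA ratio of all genes as a dotted line. Trac RNA lies at -0.69 and -0.998, and the Cd3e window at -0.03 in T cell-like and -1.29 in NK cell-like nuclei.

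Chromatin within 10 kb of most start sites was more accessible in the T and NK cell-like classes than in conventional dendritic cells. Of the regions shared by both libraries, only 1 of Cd3e and 1 of Cd3g covered a start site, and the others lay further off. Cd3d and Cd3g were counted over largely the same regions. Accessibility is given as fragments in the peaks of a 10 kb window, scaled to counts-per-million of the fragments of the class (fragment CPM). Over cDC1-like and cDC2-like nuclei together, 9 of 10 windows were at least 1.5-fold more accessible in T cell-like nuclei on both days, against 16.5% of 22078 windows at D0 and 16.7% of 22325 at D5, and all but Tcrg-C1 passed. In NK cell-like nuclei 9 of 10 passed as well, against 16.2% of 22340 and 15.7% of 22404 windows, and all but Cd3e passed. The Trbc1 window stood at 95.4 and 121 fragment CPM in NK cell-like nuclei and at 3.55 and 2.58 in the dendritic nuclei, 26.9-fold and 47.0-fold apart. The Tcrg-C2 window was 62.1-fold and 63.9-fold more accessible in T cell-like than in dendritic nuclei, though only 7.5 and 15 dendritic fragments stand behind these ratios. The pDC-like nuclei did not share this low level at every window. Tcrg-C1 stood there at 44.9 and 46.4 fragment CPM, above the 14.7 and 12.3 of T cell-like and the 16.9 and 20.6 of NK cell-like nuclei. Trbc2 stood at 54.7 and 69.1 and Tcrg-C2 at 13.8 and 20.5 in pDC-like nuclei, below both lymphoid classes, and Tcrg-C4 stood at 0.430 and 0.576. In nonclassical monocyte-like nuclei the Cd3g window stood at 73.3 and 78.5, from 25 and 35 fragments. It stood at 77.5 and 94.4 in NK cell-like nuclei.

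Fewer windows than RNA levels passed the limits between the T cell-like and the NK cell-like class, and their number depended on the processing. At D0, 1 of 10 was more accessible in T cell-like nuclei, against 1.52% of 17877 windows, and 2 were less accessible, against 2.75%. The Cd3e window stood at 54.4 and 25.6 fragment CPM in T and NK cell-like nuclei, a log2 ratio of 1.08 (0.57 to 1.59). The Trbc1 window stood at 53.4 and 95.4, a ratio of -0.84 (-1.28 to -0.42), and the Trdc window at 35.8 and 84.1, a ratio of -1.23 (-1.77 to -0.73). With no nuclei removed by doublet score and the group led by Ccl1 counted as NK cell-like, 3 windows were more accessible in T cell-like nuclei on each day, and the ratios were 0.16 (-0.22 to 0.52) for Trbc1 and -0.46 (-0.98 to 0.01) for Trdc at D0, with neither called. With that group named T cell-like, 4 and 5 windows were more accessible in that class, and the ratios were 0.60 and 0.47.

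At D5, 2 of 10 windows were more accessible in T cell-like nuclei, against 2.32% of 16493 windows, and 0 were less accessible, against 2.98%. Cd3e stood at 40.4 and 6.98 fragment CPM, a log2 ratio of 2.53 (1.56 to 3.62), and Tcrg-C4 at 29.1 and 15.2, a ratio of 0.94 (0.12 to 1.77). The Cd3e window held 7 peaks at D0 and 4 at D5, so its values within a day do not cover the same peaks on both days. The Tcrg-C4 ratio became -0.82 with a window of 2 kb. The Trac window was alike in both classes, at 200 and 256 in T cell-like and 193 and 238 in NK cell-like nuclei, beside 86.0 and 101 in cDC1-like nuclei, although Trac RNA differed 12.0-fold at D0. TMM scaling lowered all T over NK window ratios by 0.37 at D0 and 0.17 at D5 on the log2 scale. The Trbc1 window at D5 (-0.61, -0.98 to -0.24) then passed the limit as less accessible, and the Tcrg-C4 window at D5 was no longer called.

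The Cd3e difference sat at the start site itself. The region chr9:45009049-45009981, which contains the printed Cd3e promoter, stood at 33.6 fragment CPM in T cell-like nuclei and 5.86 in NK cell-like nuclei at D0, a log2 ratio of 2.52 (1.67 to 3.40), and at 27.1 and 2.47 at D5, a ratio of 3.45 (1.93 to 5.43). In dendritic nuclei it stood at 0.706 and 0.314. The region chr9:44979995-44980866, which contains the printed Cd3g promoter, stood at 14.5 and 9.61 in T and NK cell-like nuclei at D0, a ratio of 0.60 (-0.41 to 1.53), and at 27.6 and 15.2 at D5, a ratio of 0.86 (0.02 to 1.71). In dendritic nuclei it stood at 0.740 and 0.775, so this start site was accessible in both lymphoid classes, as its RNA was present in both. No region contained the Cd3d promoter, and Cd3d and Cd3g share the regions of their windows at D5.

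At the beta locus 3 regions before and between the constant genes are described, all accessible in both classes. Of these, the one before Trbc1 differed between the classes in degree on both days. The Trbc1 window also held regions with centres at -10013 and -8281 bases from its start, at 4.21 fragment CPM or less in both classes. The Trbc2 window also held 2 regions further on, with centres at 7986 and 9847 bases from the Trbc2 start. Their levels are not given here, so these 3 regions are not the whole of the locus. The region chr6:41532302-41533255, with its centre at -5439 bases from the Trbc1 start, stood at 20.04 and 31.6 fragment CPM in T cell-like nuclei and at 56.0 and 71.7 in NK cell-like nuclei, with log2 ratios of -1.48 at D0 and -1.18 at D5. The space between the constant genes held regions of both kinds. The region chr6:41541419-41542357 stood at 7.51 and 23.4 in T and NK cell-like nuclei at D0, a ratio of -1.64 (-2.95 to -0.56), and at 22.05 and 23.5 at D5, a ratio of -0.09. The region chr6:41544301-41545155 ran the other way at D0, with a ratio of 0.94 (0.16 to 1.69), and stood at 0.41 (-0.46 to 1.26) at D5. J segments of the first beta cluster, such as Trbj1-1 at -4354 bases from the Trbc1 start, lie near the region at -5439 bases, and those of the second cluster near the regions between the constant genes. Trbj1-1 stood at 5.24 and 2.70 CPM of RNA in NK cell-like nuclei and at 0 and 1.47 CPM in T cell-like nuclei, levels of few UMIs.

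**Figure D5:**
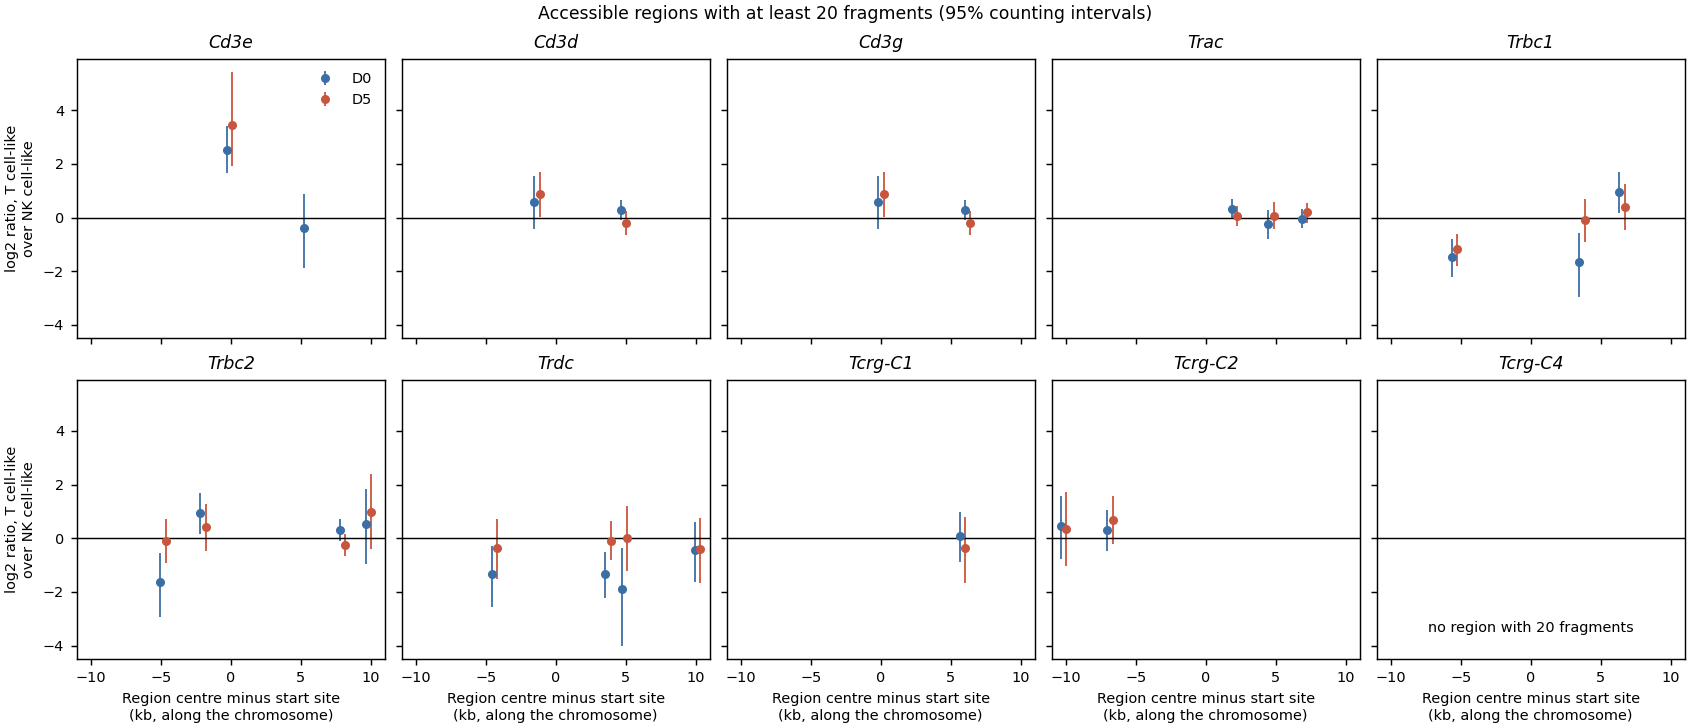
Log2 ratio of T cell-like over NK cell-like nuclei for each accessible region with at least 20 fragments, by the distance of its centre from the start site of the member (kb), at D0 and D5, with 95% counting intervals. The Cd3e start site region lies at 2.52 and 3.45, and the region before Trbc1 at -1.48 and -1.18.

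Between the days, 1 window was called in each class, and neither call held under every alternative. In T cell-like nuclei 1 of 10 was higher at D5, against 1.43% of 15714 windows, and 0 were lower, against 1.7%. This was Trdc, from 35.8 to 58.7 fragment CPM, a log2 ratio of 0.75 (0.12 to 1.39). With no nuclei removed by doublet score its ratio was 0.53 (-0.11 to 1.18) with the group led by Ccl1 counted as NK cell-like and 0.04 otherwise. It was 0.35 at Leiden resolution 2 and 0.51 with the members among the clustering genes, and in the last of these and at resolution 2 the called window was Trbc1 instead (0.60 and 0.69). With at least 2000 UMIs the ratio was 1.06 with an interval that held 0. With a window of 2 kb no window was called, but Trdc then had 0 fragments on both days and could not be called. The Trbc1 window (0.54) and the Trac window (0.34) had intervals above 0 but short of the limit. In NK cell-like nuclei 0 were higher, against 1.66% of 17985 windows, and 1 was lower, against 2.25%, namely Cd3e with a ratio of -1.29 (-2.35 to -0.36) from 58 and 11.5 fragments. This ratio was -0.31 and -0.28 with no nuclei removed by doublet score, with the group led by Ccl1 in the NK and in the T cell-like class. Its interval held 0 with at least 2000 UMIs (-0.57), with a window of 2 kb (-1.24) and without the nuclei with at least 2 dendritic markers (-1.26), where Trdc (-0.69) was called instead. The windows of Trbc2 (0.54, 0.29 to 0.79), Trac (0.28), Cd3d (0.32) and Cd3g (0.32, from the same regions) had intervals above 0 but short of the limit. In the unnamed lymphoid nuclei 0 were called, against 1.55% and 1.88% of 17874 windows. At D5 the Trdc window was at 88.8 (60.6 to 126) in T cell-like nuclei with a Trdc UMI and at 42.5 (28.2 to 61.4) in those without, while at D0 both stood at 35.8. The intervals at D5 overlap slightly. NK cell-like nuclei ran the other way, at 47.1 with and 71.3 without a Trdc UMI at D5, and at 77.4 and 84.6 at D0. For Cd3e, Trac and Trbc2 the intervals of such nuclei overlapped in both classes on both days.

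The wider T cell receptor pathway followed its receptor only in part. Of 22 signalling genes that are no members, 6 of the 21 tested were higher in T cell-like than in NK cell-like nuclei at D0, with a median log2 ratio of 0.50, against 1.23% of all genes and a median of -0.05, and 4 of 20 at D5, with a median of 0.44, against 1.62% and -0.01, and none was lower. Lat, the adaptor, stood at 161 and 48.9 CPM at D0 (a log2 ratio of 1.72), and Themis at 107 and 0.874 CPM. Of the 6 genes, all but Plcg1 were among the markers that named the class, so this count is no finding. Lck, the first kinase, stood at 479 and 351 CPM, Zap70 at 204 and 157 CPM and Cd247 at 252 and 178 CPM, none past the limit. At D5, 9 of 22 were lower than at D0 in T cell-like nuclei and 0 were higher, with a median of -0.54, against 9.37% lower and a median of -0.14 over all genes. Among these were Lck, which decreased by 0.82 on the log2 scale, and Lat, which decreased by 1.04. In NK cell-like nuclei 5 of 18 were lower and 0 higher, with a median of -0.25, against 13.8% lower and a median of -0.19.

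Of the adaptors that serve NK receptors, Fcer1g and Tyrobp were abundant in both classes. Fcer1g stood at 1109 CPM in T cell-like and 1244 CPM in NK cell-like nuclei at D0, and Tyrobp at 1181 and 1553 CPM. Of 5 such genes, Sh2d1b1 was lower in T cell-like nuclei on both days, by log2 ratios of -1.45 and -1.67, and Sh2d1a was higher at D0 (1.10), against 2.86% and 2.72% of all genes lower and 1.23% higher at D0. Of the 8 alpha beta T cell genes, 4 of the 5 tested were higher in T cell-like nuclei at D0, against 1.23% of all genes, and 3 of 4 at D5, against 1.62%, with Cd8a at 337 and 14.9 CPM and Cd8b1 at 104 and 11.4 CPM at D0, though these 2 genes were among those leading the group, and Cd5, called at D0, is a marker that named the class. Of the 10 gamma delta T cell genes 2 could be tested, and Maf was lower in T cell-like nuclei on both days, at 50.9 against 204 CPM at D0 and 20.6 against 129 CPM at D5.

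The gene patterns most like those of the members were found by Pearson's r of log2(CPM + 10) over 19 points, the 10 classes on each day where they could be measured. Summed CD3 RNA was most like Thy1 (0.98), 1810006J02Rik, Klra5, Gzmb and Lat. Trbc2 was most like Klra5 (0.99), Gimap4, Gimap5, Klre1 and Slc28a2, and Trdc was most like Klra7 (0.97), Bspry, Lef1, Sult2b1 and Gm43434. The points share libraries and depth, so these values are descriptions. Gm43434 starts within 10 kb of Trdc and stood at 69.6 and 78.0 CPM in T cell-like nuclei and at 15.7 and 12.6 CPM in NK cell-like nuclei.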

How the data were processed

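RNA and ATAC-seq of the same liver nuclei were measured in 1 library per day. The authors deposited raw UMI counts per gene and raw cut site counts per peak, with peaks called in each library by itself. They were made with Cell Ranger 6.0.2 (called RNA barcodes, per the file headers) and Cell Ranger ARC 2.0.2 (joint matrices of all barcodes), on mm10 per the submitters' processing notes. The D5 joint matrix was used here without barcodes, so layers were matched where all gene counts were the same (27873 of 27873 called barcodes, 0 ambiguous; 16260 of 16260 at D0). Nuclei were kept with 1000 UMIs or more, of which mitochondrial UMIs were at most 10% (14278 and 26633). Scrublet scores of 0.2 or more, with an expected rate of 0.1, removed 3296 (23.1%) and 6801 (25.5%). Clustering used scanpy 1.11.5 (2000 variable genes, 30 components, 15 neighbours, Leiden resolution 1, then 0.4 within lymphoid nuclei), without members and V or J segments among the genes. Naming thresholds were set with the clusters in view.

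UMIs were summed per class and day and scaled to CPM. Peak counts were divided by 2 into fragments (70.4% and 75.1% of entries equalled 2), and peaks of both libraries that overlapped formed shared regions. Days were compared over these, while windows within a day used all its peaks. Intervals are exact Poisson, exact (Clopper-Pearson) binomial and, for ratios, conditional binomial, at 95%, and cover counting error only (python 3.11.15, scipy 1.17.1, numpy 2.4.6). With 1 library per day no p-value was computed. Calls needed 2-fold for RNA between classes and 1.5-fold otherwise, with the interval beyond 0 and at least 20 UMIs or fragments summed over the compared groups. TMM factors came from edgeR 4.0.16 in R 4.3.3 as an alternative scaling only. Tested on simulated counts for each of the 4 RNA comparisons, the calls recovered 100% of 200 genes changed 4-fold, and 1.2% to 2.87% of unchanged genes were called. The simulated counts were Poisson, as the intervals assume, and the changed genes had at least 100 UMIs in the real counts. Smaller changes, genes of fewer UMIs and variation between nuclei or libraries were therefore not tested.

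All members are named. Other genes are named from lists when called, at most 6 per list and comparison, or as the 5 genes most like a member. Genes named outside this rule (among them Zap70, Cd247, Fcer1g, Tyrobp, Ncr1, Klrb1c and the genes of receptor assembly) were chosen after their values were seen. Members, lists and tests were chosen with earlier results of these data known. Median depth was 1799 UMIs per called barcode at D0 and 2790 at D5, so a gene of few UMIs is limited by counting. The values of 1 gene are not reported here.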

Additional observations from a re-analysis of the deposited data

How the results depend on the processing

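No paired analysis was possible between the days because each is 1 library, and no replicate could be left out. T and NK cell-like nuclei occur in both libraries, and no test paired by library was run on them. Of 23 called results for single genes and windows, 19 kept their direction under every alternative run. Without removal by doublet score, T cell-like nuclei numbered 1111 and 2044, of which 855 and 1686 were a group led by Ccl1, mostly unnamed lymphoid nuclei before (485 and 602) or removed ones (162 and 611), so classes and doublets changed together. The share with Trdc and without Trac was 7.29% and 10.4%, windows more accessible in T than in NK cell-like nuclei were 4 and 5, members higher in T cell-like nuclei at D5 were 4, members higher at D5 in NK cell-like nuclei were 3, and no window differed by day (0 in T and 0 in NK cell-like nuclei). The windows of Trbc1 (0.60) and Trdc (0.47) then changed sign at D0. With that group counted as NK cell-like (added after seeing the data; 256 and 358 T cell-like nuclei), the Trdc share was 25.7% at D5, windows more accessible at D0 were 3, members higher and lower at D5 in NK cell-like nuclei 1 and 0, windows changed by day 0 and 0, and the Trbc1 window changed sign (0.16, D0). With at least 2000 UMIs, 13 and 66 T cell-like nuclei were left: members higher in T cell-like nuclei at D0 were 2, V segments per 100 constant UMIs 1.98, windows more accessible 0 and 1, members higher at D5 3 in T and 1 in NK cell-like nuclei, members lower 0 and 2, and windows changed by day 0 and 0. The Trbc1 window (0.31, D0), the Tcrg-C1 RNA ratio (-0.74, D0) and the Tcrg-C4 window (-0.082, D5) changed sign. With members among the clustering genes, where no recluster of lymphoid nuclei stayed unnamed, the Trdc share was 22.8% and 35.8%, and 4 members were lower at D5 in NK cell-like nuclei. With TMM scaling, members higher at D5 were 2 in T and 1 in NK cell-like nuclei, members lower 0 and 0, T cell-like windows higher at D5 2, and windows more accessible at D5 1. Without nuclei with at least 2 dendritic markers (179 and 203 T cell-like nuclei left), members higher at D5 were 1 and 1, members lower 0 and 0, and windows more accessible at D5 1. With windows of 2 kb, windows more accessible at D0 were 2, windows changed by day 0 and 0, and the Tcrg-C4 window changed sign (-0.82, D5). Trbc1, Tcrg-C1 and Tcrg-C2 had 0 peaks within 2 kb on both days and could not be called there. Thinning gave a Trdc share of 23.2% at D5. Counting Trgv2 as a V segment, chosen after seeing the data, gave 10.5 and 7.47 V segments per 100 constant UMIs in T cell-like nuclei. The cause of these changes was not tested beyond the nuclei and classes given. Leiden resolution 2, other free RNA references, a minimum of 2000 peak counts and unnamed lymphoid nuclei counted as NK cell-like (added after seeing the data) moved no count of members or windows by more than 1.5 times, though NK cell-like nuclei went from 754 and 514 to 1453 and 1136 at resolution 2 and to 1498 and 1171 with the unnamed ones. With no minimum of UMIs, 2.31% of genes were higher and 5.25% lower at D5 in T cell-like nuclei, and 3.01% and 8.29% in NK cell-like nuclei. Between the classes, 1.58% were lower at D0.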
